A study of Mus musculus with 2 samples.

Results

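The EGF-family genes described here are 5 ligands (Hbegf, Areg, Ereg, Epgn and Tgfa), 3 receptors (Egfr, Erbb2 and Erbb3) and 2 inhibitors of the receptors (Lrig1 and Errfi1) in mouse epiblast stem cells. Their members were found by gene name among the non-control probes of 2 microarrays, which gave 10 of 34650 genes on the arrays, 13 of 55681 probes and 40 of 59305 spots. The starting material of both groups was E14Tg2A, a line of embryonic stem (ES) cells from strain 129/Ola mice, and both were cultured in a chemically defined medium with 20 ng/mL Activin A and 12 ng/mL FGF2. The EpiSC group was induced directly from ES cells. The ELA-EpiSC group was induced from Epiblast-Like Aggregates (ELA), the floating clusters that ES cells form without serum and LIF. Each group was 1 array, hybridized with RNA pooled from 3 experiments of 1 cell line, so no test was possible and the values describe these 2 RNA pools. The source field of the labels names undifferentiated cells for both samples, and an Argonaute immunoprecipitate for EpiSC; the groups were taken from the titles, with which the descriptions match. Were the source field right, each difference below would be one between an immunoprecipitate and total RNA, which was not tested.

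The ligands of the EGF family are made as membrane proteins, and metalloproteases such as ADAM17 release their active part from the cell surface. HB-EGF, amphiregulin, epiregulin, epigen and TGF-alpha bind the receptor EGFR. Erbb2 encodes a receptor with no known ligand that pairs with the others, and Erbb3 one that binds neuregulins and has a weak kinase. Receptor pairs signal through RAS and ERK. The product of Errfi1, also named MIG6, binds the EGFR kinase and inhibits it, and LRIG1 is a membrane protein that promotes receptor degradation. Both act as feedback inhibitors.

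The share of probes well above background was 65.9% for EpiSC and 65.0% for ELA-EpiSC, with 0 saturated spots in each. Both arrays lay on 1 slide and were read in 1 scan. Levels below are normalized log2 intensities, and differences are log2 ELA-EpiSC minus EpiSC. The 10 repeat spots of each of 312 detected probes gave a spot-noise SD of 0.10 for a log2 difference, which covers neither labelling nor culture. A gene was counted as past 1 where its difference was at least 1 in size and its mean log2 level at least 7.5. Quantile normalization gives both arrays 1 distribution and hides a shift shared by all genes. The 8 detected of 10 spike-in RNAs, added at labelling, were all lower on the ELA-EpiSC array, by 0.26 to 0.86. Scaling to them adds 0.54 to every difference and moves the median of all genes from 0.00 to 0.54.

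The sequences of 3 probes are shown: 1 of the 3 Egfr probes, which differed between the groups by unequal amounts, and the only probes of the dim Areg and Erbb3. The brightest Egfr probe, which gives that gene's value, is not printed, and the exons the probes lie in were not analysed here. Each is a whole probe of 60 bases as deposited, 5′ to 3′, with no part capitalized. They match mm9 at chr11:16783556-16783615 on the plus strand (Egfr), chr5:91570090-91570149 on the plus strand (Areg) and chr10:128006424-128006483 on the minus strand (Erbb3).
Egfr, the second of its probes by level: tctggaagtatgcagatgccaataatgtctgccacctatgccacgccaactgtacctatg
Areg: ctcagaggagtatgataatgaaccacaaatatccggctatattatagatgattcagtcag
Erbb3: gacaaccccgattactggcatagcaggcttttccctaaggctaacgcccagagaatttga

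Hbegf had the largest difference of the ligands. Its probe, on chromosome 18, read a mean signal of 2104 intensity units for EpiSC and 7175 for ELA-EpiSC, over local backgrounds of 27 and 25. After normalization its EpiSC level was 11.20 and its ELA-EpiSC level 12.69. The difference was 1.49, or 2.81-fold. The ELA-EpiSC level was the higher by far more than the spot noise, although Hbegf had 1 spot per array. The difference stood at rank 340 of the 16649 genes that passed the minimum, counted from the most positive. Among those genes 756 were past 1 and higher in ELA-EpiSC (4.54%), and 742 were past 1 and higher in EpiSC (4.46%). In these bulk RNA pools, fewer cells of a type and less RNA per cell cannot be told apart, for Hbegf and for every gene below.

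Areg, Ereg and Epgn form a gene cluster, and their probes lay within 106 kb of chromosome 5 (mm9). All 3 were dim on both arrays. The Areg probe read 70.0 units in EpiSC and 73.0 in ELA-EpiSC, 2.33 and 2.61 times its local background, which gave levels of 6.67 and 6.64. The Epgn probe, at chr5:91464119-91464178, read 66.1 and 62.0 units, which gave levels of 6.66 and 6.52. Neither gene reached the minimum level of 7.5. The differences were -0.03 for Areg and -0.14 for Epgn, and both turn positive with spike-in scaling, to 0.50 and 0.40. Areg also turns positive with the median pixel signal and in the deposited log2 values. The Ereg probe, at chr5:91522553-91522612, read 29.2 units in EpiSC and 30.5 in ELA-EpiSC over backgrounds of 26 and 28, so it was well above background on neither array and no fold is given. Btc, the gene of the ligand betacellulin, has its probe outside that stretch, at chr5:91786948-91787007, and it too was well above background on neither array. The 4 probes spanned 323 kb. The smallest difference that Areg and Epgn could show at this signal was not worked out, and for Ereg and Btc no difference can be read.

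Tgfa, the fifth ligand, was read by 10 spots of 1 probe at chr6:86224838-86224897. Spot levels ran from a lowest of 7.09 to a highest of 7.35 in EpiSC, with a median of 7.16, and from 6.85 to 7.34 in ELA-EpiSC, with a median of 7.05. The ranges overlapped. The mean levels of 7.20 and 7.09 lay below the minimum of 7.5, and the difference over the 10 spot pairs was -0.11 ± 0.12 (SD, n = 10 spots of 1 RNA pool per group), lower in ELA-EpiSC in 8 of 10 pairs, but 0.43 with spike-in scaling. Of the 5 ligands, Hbegf alone passed the minimum.

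**Figure D1:**
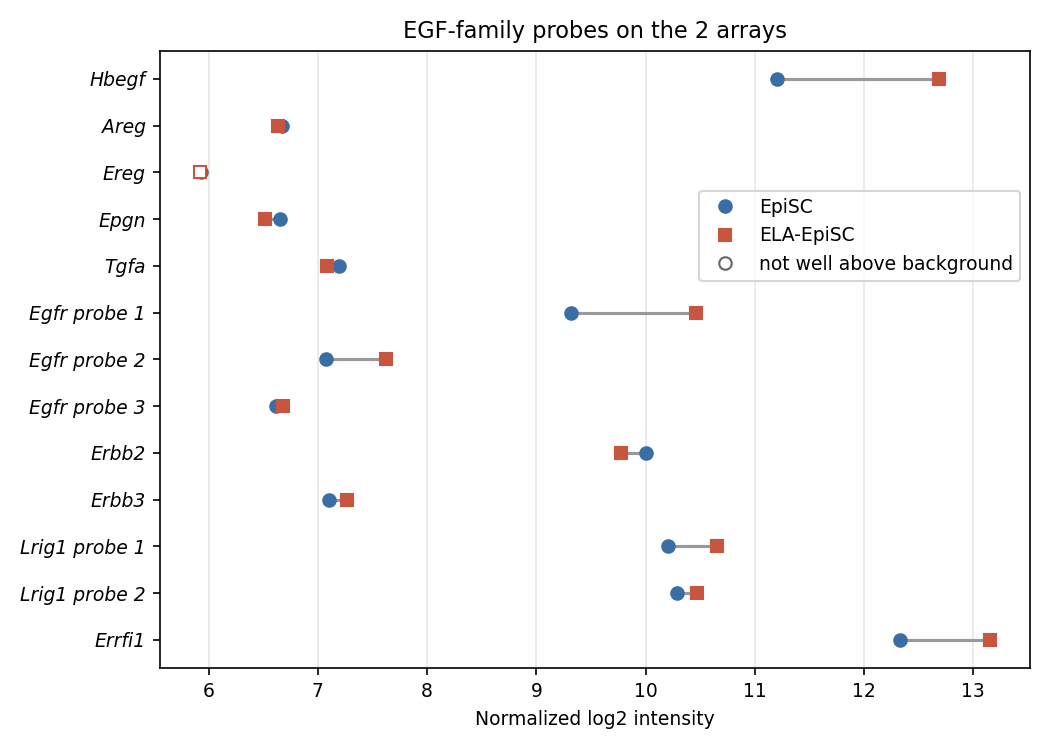
Normalized log2 intensity (x axis) of each of the 13 EGF-family probes (y axis) for EpiSC (blue circles) and ELA-EpiSC (red squares), each point being the mean of the probe's spots and each grey line joining the pair. Hbegf (11.20 and 12.69), Egfr probe 1 (9.32 and 10.46) and Errfi1 (12.32 and 13.15) are spread widest, while Ereg is drawn open because neither array read it well above background.

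Egfr, the receptor of these ligands, had 3 probes. The brightest, at chr11:16813815-16813874, was spotted 10 times. In EpiSC its spots ran from 9.06 to 9.67 with a median of 9.24, and in ELA-EpiSC the 8 spots kept ran from 10.25 to 10.63 with a median of 10.48. The 2 sets of spots did not overlap. The mean levels were 9.32 and 10.46, which gave a difference of 1.14, or 2.21-fold, at rank 594 of 16649. The scanner software had marked 2 of the 10 ELA-EpiSC spots as outliers of their set, and those were left out. With them kept the difference was 1.24, and over the 8 pairs of spots at the same place on both arrays it was 1.22 ± 0.12 (SD, n = 8 spots of 1 RNA pool per group), higher in ELA-EpiSC in 8 of 8 pairs.

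The other Egfr probes lie upstream of the brightest one and were dim. The probe whose sequence is printed above read 95.1 units in EpiSC and 176 in ELA-EpiSC, with levels of 7.07 and 7.63 and a difference of 0.55. The remaining probe, at chr11:16787172-16787231, read 61.8 and 69.7 units, with levels of 6.62 and 6.68 and a difference of 0.07. All 3 probes were higher in ELA-EpiSC, but by unequal amounts. The mean over the 3 probes differed by 0.59, so Egfr was past 1 by its brightest probe and not by the mean of its probes. The constant added to the signal in background correction compresses differences of dim probes, such as these other Egfr probes. Its part in the unequal amounts and in the lower mean was not tested. Which transcripts each probe reads was not analysed here.

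Erbb2 was read by 10 spots of 1 probe at chr11:98298103-98298162. Spot levels ran from 9.79 to 10.20 in EpiSC and from 9.45 to 9.99 in ELA-EpiSC, and the ranges overlapped. The means were 10.00 and 9.78, and the difference was -0.23 ± 0.13 (SD, n = 10 spots of 1 RNA pool per group), lower in ELA-EpiSC in 9 of 10 pairs. Its direction depended on the scaling: it was 0.31 with spike-in scaling and 0.00 with median scaling, and before normalization the mean signal was 896 units in EpiSC and 942 in ELA-EpiSC. Erbb3 read 98.0 units in EpiSC and 131 in ELA-EpiSC, with levels of 7.10 and 7.27, below the minimum, and a difference of 0.17. The last receptor gene of the family, Erbb4, was well above background on neither array.

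**Figure D2:**
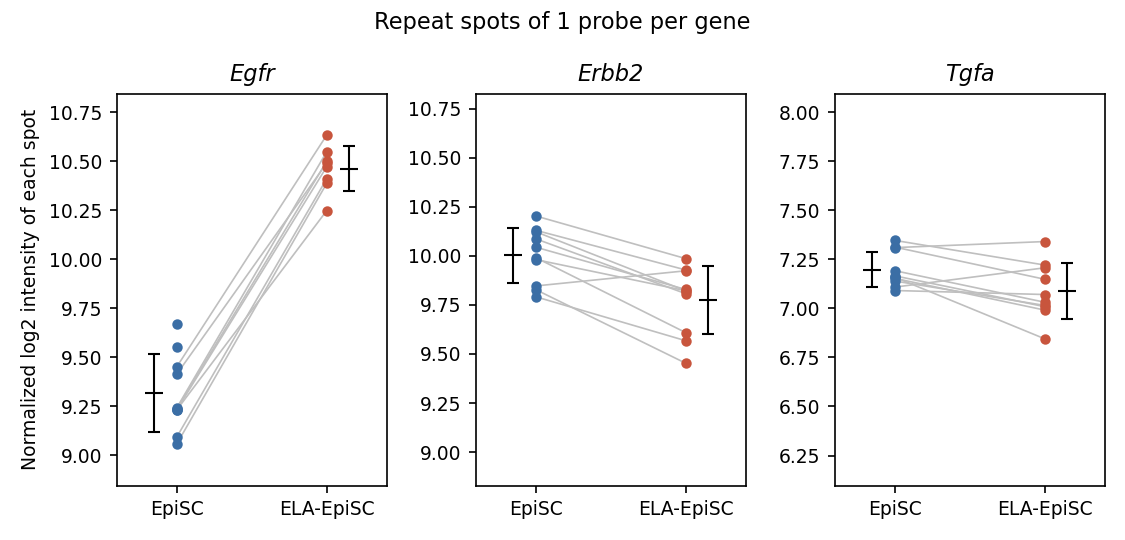
Normalized log2 intensity (y axis, all 3 panels spanning the same range) of each repeat spot of 1 probe for Egfr, Erbb2 and Tgfa on the EpiSC and ELA-EpiSC arrays (x axis), with grey lines joining spots at the same place and black bars giving mean ± SD over spots. The Egfr spots of the 2 arrays are apart (9.06 to 9.67 against 10.25 to 10.63), and those of Erbb2 and Tgfa overlap.

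Both inhibitors were higher in ELA-EpiSC and neither was past 1. Errfi1, at chr4:150242886-150242945, read 4616 units in EpiSC and 9890 in ELA-EpiSC, with levels of 12.32 and 13.15. The difference was 0.83, or 1.78-fold, from 1 spot per array, at rank 1068 of 16649. It went past 1 with median scaling (1.03) and spike-in scaling (1.37). Lrig1 had 2 probes on chromosome 6, at chr6:94554811-94554870 and chr6:94554523-94554582. The first read levels of 10.20 and 10.65, a difference of 0.45, and the second 10.29 and 10.47, a difference of 0.18. Both probes were the higher in ELA-EpiSC. Differences of this size were common: the median size of the difference over all genes that passed the minimum was 0.28, above that of the second probe, and 20.3% of them lay below the spot-noise SD.

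Of the 10 members, 9 were detected, 5 passed the minimum and 2 were past 1, Hbegf and Egfr, both higher in ELA-EpiSC, where 4.54% of all genes that passed were called. In the direction of EpiSC 0 were past 1, beside 4.46% of all genes that passed. Those that passed the minimum had a median difference of 0.83, beside 0.00 over all genes that passed. All 9 detected had a median of 0.17, beside -0.006 over all detected genes. The 5 that did not pass were 4 of the 5 ligands and Erbb3. The plot of difference against level shows the members among all detected genes.

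**Figure D3:**
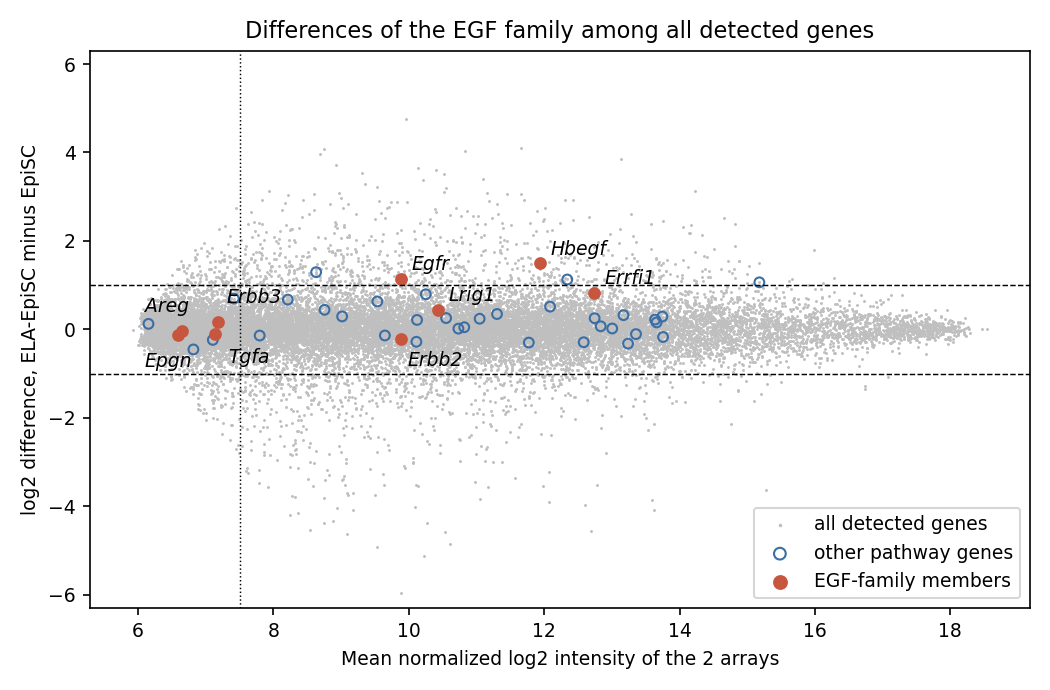
log2 difference, ELA-EpiSC minus EpiSC (y axis), against the mean normalized log2 intensity of the 2 arrays (x axis) for 25851 detected genes (grey), with the 9 detected EGF-family members in red and 34 other genes of the pathway as blue circles. Dashed lines mark a difference of 1 in each direction and the dotted line the minimum of 7.5; Hbegf and Egfr lie above the upper line, Errfi1 (0.83) just under it, and Areg, Epgn, Tgfa and Erbb3 left of the dotted line.

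The other genes of the pathway were taken from a list of 37, of which 34 were detected and 30 passed the minimum. Of these, 3 were past 1 and higher in ELA-EpiSC, beside 4.54% of all genes that passed, and 0 were past 1 and higher in EpiSC, beside 4.46%. In all, 22 of 30 differences (73.3%) were above 0, beside 50.2% of all genes that passed. Their median was 0.23. Nrg1, the gene of neuregulin 1, a ligand of ERBB3 and ERBB4, had levels of 7.99 and 9.28 (EpiSC and ELA-EpiSC, in this order here and below), a difference of 1.29. Rhbdf1 encodes iRhom1, which takes part in the maturation of ADAM17. Its levels were 11.78 and 12.90, a difference of 1.13. Lrig3, of the same gene family as Lrig1, had levels of 14.65 and 15.71, a difference of 1.06.

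Among the other ligand genes, Egf had levels of 7.07 and 7.76, below the minimum, with a difference of 0.70. Nrg4 had levels of 7.05 and 6.59, a difference of -0.46, which is 0.08 with spike-in scaling. Nrg2 was above background on the ELA-EpiSC array only, and Nrg3 on neither. The sheddase genes Adam17 and Adam10 differed by -0.14 and -0.30, and Cd9, whose tetraspanin associates with the HB-EGF precursor, by -0.32. All 3 turn positive with spike-in scaling, to 0.40, 0.24 and 0.21. Of the adaptor genes, Gab1 had the largest difference, 0.79. Of 9 genes listed under receptor degradation and inhibition, 7 (77.8%) were above 0, beside 50.2% of all genes that passed. Among the 7 were Socs4 (0.67), Cbl (0.63) and Socs5 (0.44). Cblb (-0.28) and Lrig2 (-0.14) were below 0, and both turn positive with spike-in scaling, to 0.25 and 0.40. The 10 genes of the RAS-ERK cascade ranged from -0.29 for Map2k2 to 0.51 for Braf, and 0 were past 1.

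Upstream sequence is shown for Egfr and Errfi1, which were higher in ELA-EpiSC, and for Areg, which was dim on both arrays. Each is the 120 bases before an annotated start, 5′ to 3′ on the plus strand, from RefSeq on GRCm38.p6, a later build than the probe coordinates. Capitals mark matches on either strand to the cAMP response element (CRE) TGACGTCA, the GC box GGGCGG or the TATA box TATAAA. They lie at chr11:16752083-16752202 for Egfr, chr4:150854950-150855069 for the second of 2 Errfi1 starts, and chr5:91139479-91139598 for Areg.
Egfr: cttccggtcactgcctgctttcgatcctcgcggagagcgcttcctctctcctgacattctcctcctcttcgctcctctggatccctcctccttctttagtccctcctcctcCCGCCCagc
Errfi1: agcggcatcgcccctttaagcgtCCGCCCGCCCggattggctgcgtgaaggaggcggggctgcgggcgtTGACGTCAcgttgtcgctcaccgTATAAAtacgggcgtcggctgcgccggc
Areg: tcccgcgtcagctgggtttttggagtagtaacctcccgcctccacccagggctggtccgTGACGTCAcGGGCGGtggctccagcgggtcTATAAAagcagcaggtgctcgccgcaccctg
Over windows of 300 bases, 250 before to 50 after a start, 7 of 10 members had 8 windows. Hbegf, Ereg and Erbb3 had no window here, so their upstream sequence was not searched. The CRE letters were in the Areg window and in 1 of 2 Errfi1 windows, and in 1.79% of all 32851 windows. Those same windows each held a TATA box, as did that of Epgn, beside 13.6% of all windows. A GC box was in the windows of Areg, Tgfa, Egfr and Lrig1 and in 1 of 2 of Errfi1, beside 35.7% of all windows. That Errfi1 window held 3 matches, of which 2 lie in the stretch shown and overlap. The AP-1 motif TGANTCA was in 0 of the 8 windows and in 7.81% of all. The stretches shown for Errfi1 and Areg both carried a CRE and a TATA box. Which Errfi1 start these cells use, and whether the motifs bear on any difference, was not tested.

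The epiblast markers were present in both groups. Pou5f1, Sox2, Nanog, Fgf5, Otx2 and Pou3f1 were all detected on both arrays. By their brightest probes, differences ran from -0.27 (Sox2) to 0.32 (Nanog) except for Pou3f1 at 1.46. Over all detected probes, those of Nanog ran from -0.31 to 0.32 and those of Otx2 from -0.28 to 0.00. Markers of other cell types moved between the same arrays as Hbegf and Egfr, and their part in those differences was not tested. Of the visceral endoderm list, 8 of 8 markers were detected in EpiSC. Of the 5 that passed the minimum, 4 were past 1 and higher in EpiSC, beside 4.46% of all genes that passed. The list summed to a normalized intensity of 11304 in EpiSC and 968 in ELA-EpiSC, and without its largest contributor, Hnf4a, to 4237 and 764. Such sums add unlike probes and weigh bright ones most. Hnf4a differed by -5.12, Ambp by -4.53 and Amn by -2.75. Cubn (0.11) and Afp (0.21, below the minimum) went the other way. Ttr, Apoa1 and Apoa4 were not well above background in ELA-EpiSC. Before spike-in scaling, Ttr was at least 10.7-fold lower there, taking the lowest detected level of that array (6.11) as its bound. Spike-in scaling makes that fold smaller. Of the trophoblast list, 6 of 6 were detected, summing to 10362 and 5779, with Gata3 at -2.56, Elf5 at -1.48 and Tfap2c at 1.16. Without Gata3 the trophoblast sums were 3666 and 4643, the other way round. The mesenchyme list summed to 3656 and 6253 with 6 of 7 detected, and without Col1a1 to 3521 and 4488. Col1a1 differed by 3.72, Pdgfra by 1.77, Thy1 by 0.05 and Dcn by -0.33, and Lum was well above background on neither array. The primitive streak list (5 of 5 detected) summed to 30936 and 53019, and without T to 28613 and 40036, with T at 2.48, Mixl1 at 1.97 and Mesp1 at -1.66. The neural list (3 of 4 detected) summed to 15417 and 33447, with Nes at 2.11, Sox3 at 0.23 and Sox1 at -0.09, and without Nes to 10511 and 12281, with Pax6 well above background on neither array. Of the epithelial list 6 of 6 were detected, summing to 290953 and 251122, and of the macrophage list 4 of 4, summing to 1974 and 2446. In both of these lists 0 markers were past 1.

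The differences of the members were recomputed under 14 other ways of processing the same arrays. The detection filters moved no member, and the mean over probes moved only Egfr and Lrig1, which have several, so 11 settings could move Hbegf and 12 could move Egfr. Hbegf ranged from 1.46 to 2.03 and was past 1 in 11 of 11. Egfr ranged from 0.59 to 1.68 and was past 1 in 11 of 12, the exception being the mean over its probes. Errfi1 ranged from 0.70 to 1.37 and Lrig1 from 0.32 to 0.98. Hbegf, Egfr, Errfi1, Lrig1 and Erbb3 were above 0 in each of these settings, Erbb3 at 0.00 after rounding with 75th percentile scaling. The signs of Areg, Epgn, Tgfa and Erbb2 changed with the setting.

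**Figure D4:**
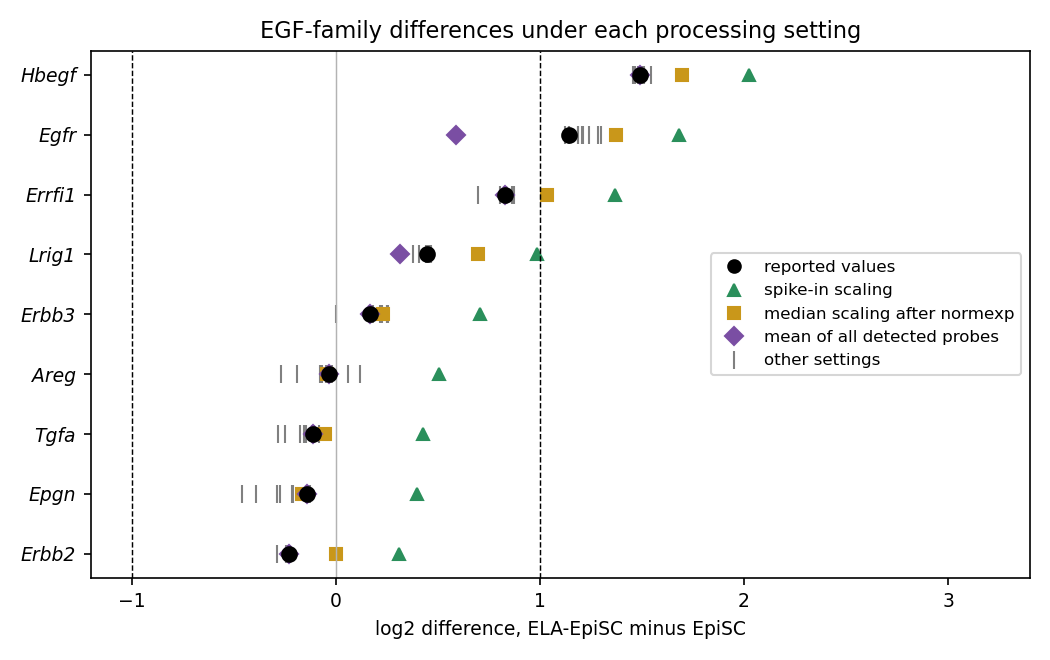
log2 difference, ELA-EpiSC minus EpiSC (x axis), of the 9 detected EGF-family genes (y axis) as reported (black circles) and under 14 other processing settings, 3 of which have their own symbol; dashed lines mark a difference of 1 in each direction. Hbegf lies past 1 throughout (1.46 to 2.03), Egfr falls to 0.59 with the mean of its probes, and spike-in scaling gives the highest value of each gene.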

How the data were processed

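RNA of the samples titled EpiSC and ELA-EpiSC, total RNA by their molecule field, was measured on 2 one-colour Agilent arrays for mouse transcripts, 1 per group. Per the labels, RNA of 3 experiments was pooled and 50 ng was labelled with Cy3, whereas the study's methods name another amount. The deposited scanner files give each spot's linear intensity, before normalization, with its local background. Per the file headers they were written by Feature Extraction 10.7.3.1, while the submitters' processing notes give version 9.1. The authors also deposited log2 values per probe, background-corrected and quantile normalized with limma per their methods. Their background correction is not given in the sources used here. Differences in that table correlated with those used here at r = 0.890 across 55647 probes, which are not independent replicates.

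Mean spot signal was corrected for the median local background with normexp (offset 50, all spots) in limma 3.58.1 under R 4.3.3. Control spots and spots marked as non-uniform or outliers (158 on EpiSC, 117 on ELA-EpiSC) were removed, arrays were quantile normalized, and log2 values were averaged per probe. The offset compresses differences of dim probes. A probe was called detected if a share of 0.5 or more of its spots had the software's mark for signal well above background. A gene took its brightest probe detected on at least 1 array. The thresholds of 1 and 7.5 follow the study's methods. There they were applied to ES against ELA cells, together with a limit on the corrected p-value, which could not be used here. Every probe of each member is named, with the pathway genes past 1, the other ligand and receptor genes, and markers. Background correction, normalization and averaging per probe were tested on simulated data, with changes planted in brighter probes only. The detection calls, the choice of the brightest probe and the spike-in scaling were not simulated. Probe positions are mm9, and all 10 member names were found in the RefSeq table of GRCm38.p6. The members and lists were chosen with earlier results of these data known. With 1 array per group, their number limits the precision and no p-value was computed.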

Additional observations from a re-analysis of the deposited data

How the results depend on the processing

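Counts and medians were recomputed under 17 alternatives, and 0 members or pathway genes were past 1 and higher in EpiSC under any of them. Toward EpiSC the share of all genes past the threshold ran from 1.84% with spike-in scaling to 10.9% at a threshold of 1.5-fold. The count of members past 1 and higher in ELA-EpiSC, 2 as reported, was 1 with the mean of all detected probes, by which Egfr drops out, and 3 with median scaling, spike-in scaling or a threshold of 1.5-fold, which add Errfi1. The median of the members, 0.83 as reported, was 0.59 with that mean, 0.70 with processed signal scaled to the 75th percentile, 1.03 with median scaling, 1.37 with spike-in scaling and 0.17 with no minimum, which adds the dim members. The median of the pathway genes, 0.23 as reported, was 0.13 with the processed signal, 0.44 with median scaling and 0.77 with spike-in scaling. Their count past 1, 3 as reported, was 7 with spike-in scaling, 6 at a threshold of 1.5-fold, 4 with median scaling, and 2 with processed signal, with 75th percentile scaling or with a minimum of 9.

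The scaling also set the balance over all genes. The reported split of 756 genes past 1 toward ELA-EpiSC and 742 toward EpiSC became 2496 and 306 with spike-in scaling, whose median over all genes is 0.54, and 1107 and 522 with median scaling, whose median is 0.15. At a threshold of 1.5-fold it was 1845 and 1823. Spike-in scaling adds the same amount to every difference, and for the other settings the cause was not tested. No paired analysis was possible because there is 1 array for EpiSC and 1 for ELA-EpiSC. Replicates could not be left out for the same reason. The signal over background limits what can be said of Areg, Ereg, Epgn, Tgfa and Erbb3.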
